A study of Rattus norvegicus with 6 samples.

Results

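The genes described here are 46 genes of the G1/S transition and of DNA replication, chosen by symbol from the deposited count table, which holds 40456 genes. All 46 were found in it and all 46 passed the expression filter, among 14216 tested genes. The cells were H9c2, a clonal rat line from embryonic heart tissue that grows as myoblasts, labelled wild type in every sample. They had been grown with 10% serum and then held for 5 days in medium with 1% serum and 1 µM retinoic acid, a medium used to differentiate them. Poly-A RNA was sequenced from 6 libraries. With Lipofectamine as the carrier, 3 samples received a negative control gapmer and the other 3 a gapmer complementary to Tug1, a long non-coding RNA, each at 25 nM for 24 h. Gapmers are short antisense strands, here with locked nucleic acids, whose DNA core recruits RNase H to the paired transcript. Each group received a single sequence, so effects of the oligonucleotide and of its target cannot be told apart. Both are printed because they are the only agents that separate the groups, and the control differs from an untransfected cell by carrying a gapmer too.
Tug1 gapmer: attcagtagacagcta
Negative control gapmer: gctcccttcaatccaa

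Entry into S phase runs through a relay of kinases and transcription factors. D-type cyclins with CDK4 and CDK6, then E-type cyclins with CDK2, phosphorylate the retinoblastoma family, which releases E2F factors onto the promoters of replication genes. The origin recognition complex, CDC6 and CDT1 load the MCM helicase onto DNA in G1, and MCM10, CDC45 and the GINS complex turn it into a moving replicative helicase in S phase. Polymerases, the sliding clamp and its loader then copy DNA from nucleotides made by ribonucleotide reductase and thymidylate synthase. Muscle precursors leave the cell cycle as they differentiate, and the retinoblastoma family keeps E2F target genes off in them.

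Total counts ran from 12978548 to 13544337 per library, which made 1 CPM (counts-per-million, scaled by TMM) worth 12.9 to 13.8 counts. Tug1 was at 54.7, 52.0 and 55.4 CPM in control libraries 1 to 3 and at 11.9, 11.2 and 12.5 CPM in knockdown libraries 1 to 3, so the values follow the labels. The labels call the cells cardiomyocytes, but Myh6, Myh7, Nkx2-5 and Ryr2, defining genes of that cell, had at most 3 counts in any library, as did Nppb. Of the 10 cardiac markers 3 were tested: Tnnt2 (349 CPM in controls, called higher), the transcription factor gene Gata4 (10.1 to 13.8 CPM, not called) and Myl2 (0.539 CPM in controls, called higher). The skeletal muscle regulator Myog was at 271 to 280 CPM in controls. Of 10 markers of blood, vessel, nerve and other cells, Ptprc and Hbb were at 0 in every library and 2 were high enough to be tested, which moved in opposite directions: Cd68 was higher (a mean of 3.60 CPM over controls and 7.65 CPM over knockdown libraries) and Tubb3 lower (15.7 and 4.05 CPM). The summed level of the 10, mostly Tubb3 in controls, was 18.3 to 21.4 CPM in controls and 11.2 to 13.1 CPM after knockdown. The 11 markers of skeletal muscle, or shared between muscle types, summed to 923 to 938 CPM in controls and 1362 to 1450 CPM after knockdown. Of the 10 tested, 8 were called higher and 1, Myod1, lower, against 30.8% and 30.9% of all tested genes. The part of these marker changes in the results below was not tested.

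The module did not move as a block. In edgeR's quasi-likelihood test at an adjusted p of 0.05, 26 of the 46 genes were called changed (56.5%), 14 higher (30.4%) and 12 lower (26.1%) after knockdown, and 20 were not called. Across all tested genes 61.7% were called, 30.8% higher and 30.9% lower, so the share of called members is near the background with this expression filter. The 3 knockdown values lay entirely above or entirely below the 3 control values for 28 members, against 65.6% of all tested genes. The median log2 fold change was 0.08 for the members and 0.00 for all tested genes, and the median absolute value was 0.31 and 0.34. Members ran from -0.97 (Cdt1) to 1.84 (Cdc6), both of them licensing factors. Cdc6 had 7 to 16 counts in control libraries and passed the expression filter through its knockdown libraries only. The highest of the other members was Cdc45 (1.02). Only these 2 members, Cdc6 and Cdc45, had an absolute log2 fold change of 1 or more, as had 1397 of the 14216 tested genes. In bulk RNA, fewer cells in a cycle phase and less RNA per cell cannot be told apart.

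**Figure D1:**
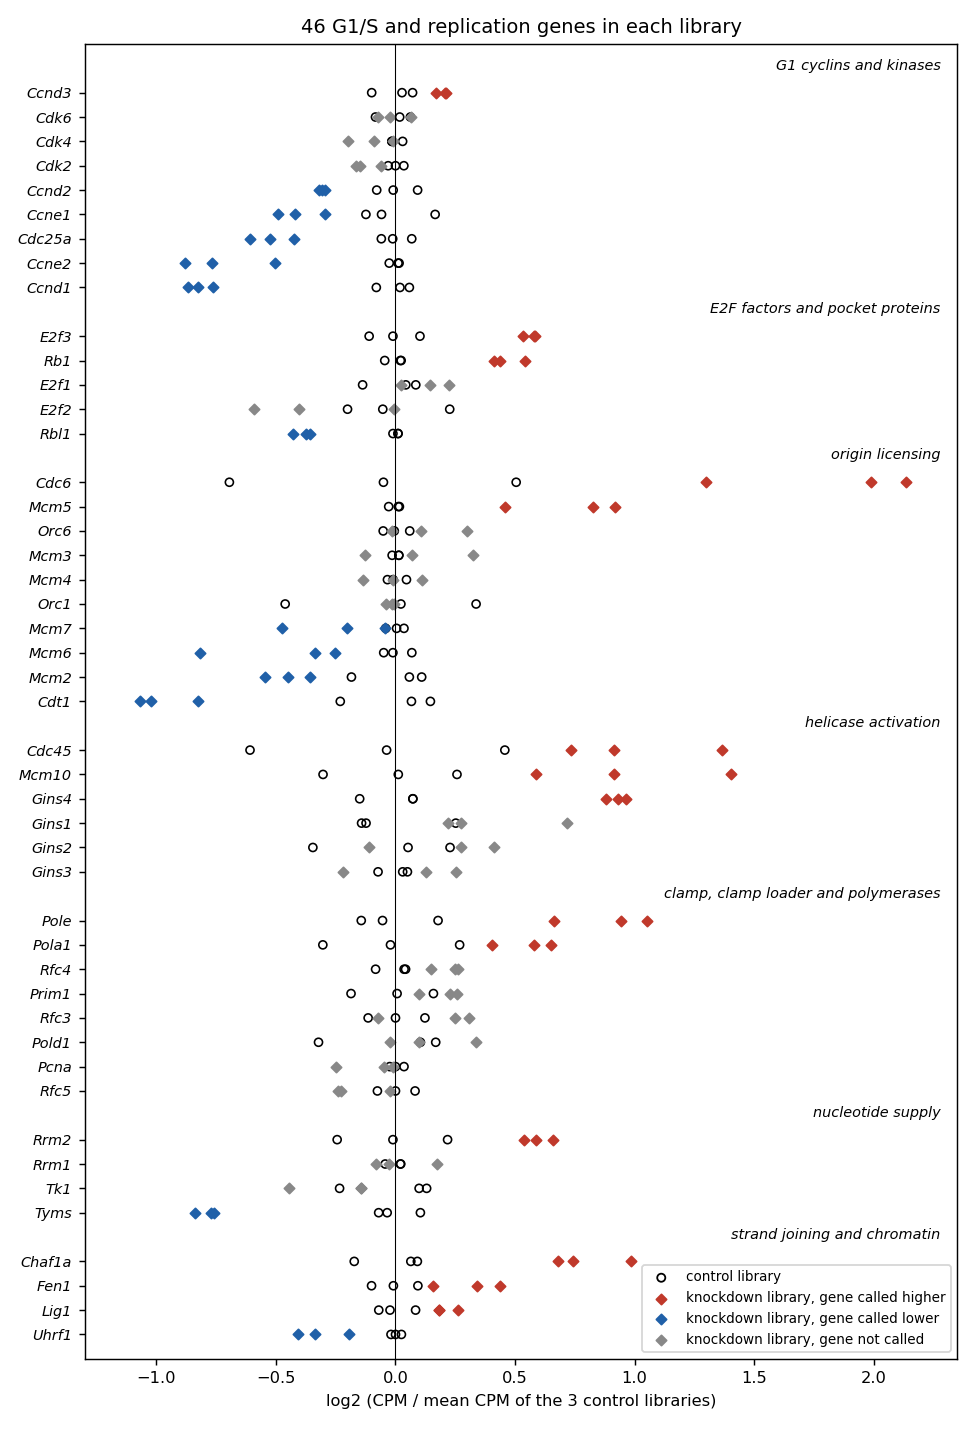
CPM of each of the 46 genes in each of the 6 libraries, as log2 of its ratio to the mean of the 3 control libraries; circles are control libraries and diamonds knockdown libraries, coloured by the edgeR call. Genes called higher (14) and lower (12) sit side by side in most roles, with Cdc6 farthest to the right and Cdt1 farthest to the left.

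Among the 9 G1 cyclins and kinases, 5 were lower, 1 was higher and 3 were not called. Across all tested genes 30.9% were lower and 30.8% higher. Ccnd1, which encodes cyclin D1, the mitogen-responsive partner of CDK4 and CDK6, was at 945, 1012 and 1040 CPM in controls and at 589, 548 and 564 CPM after knockdown. The groups are far apart against the spread within either. Its log2 fold change was -0.82 (SE 0.0453, adjusted p 6.41e-13), a fitted fold of 0.568. Ccnd2, the cyclin D2 gene, fell with it, from 151 ± 8.99 to 122 ± 0.638 CPM (SD, n = 3; log2 fold change -0.31). Ccnd3, the cyclin D3 gene that is kept on in differentiating muscle, went the other way, at 321, 331 and 294 CPM in controls and 364, 365 and 354 CPM after knockdown. The rise was small, 0.19 (SE 0.0475, adjusted p 0.00113), though the groups did not overlap. Summed over the 3 genes, D cyclin transcripts were at 1416 to 1494 CPM in controls and 1034 to 1075 CPM after knockdown.

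The E-type cyclins fell as well. Ccne2 (cyclin E2) was at 6.75, 6.73 and 6.56 CPM in controls and at 4.71, 3.92 and 3.63 CPM after knockdown, a log2 fold change of -0.71 (SE 0.161, adjusted p 0.000598). All knockdown libraries were below all controls, at 48 to 65 counts against 85 to 88. Ccne1 (cyclin E1) went from 35.3 ± 3.81 to 26.8 ± 1.84 CPM (SD, n = 3; -0.40, adjusted p 0.000268). Cdc25a, the phosphatase that removes inhibitory phosphates from CDK2, was at 37.0, 39.1 and 35.8 CPM in controls and at 25.9, 24.5 and 27.8 CPM after knockdown. That is a log2 fold change of -0.52 (SE 0.0754, adjusted p 2.83e-06) with a clear gap between the groups. The kinases these proteins act on showed no called change, with log2 fold changes of -0.13 for Cdk2 (SE 0.0754, adjusted p 0.144), -0.10 for Cdk4 (SE 0.0489, adjusted p 0.0946; -0.14 and called lower without knockdown library 2, 0.07 and not called with the length offset) and -0.01 for Cdk6 (SE 0.0683, adjusted p 0.936). The Cdk6 value is sensitive to gene length: with an offset for genomic span, described below, it was -0.31 with an adjusted p of 0.000197. That offset also ended the call of Ccnd3 (0.01, adjusted p 0.876).

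**Figure D2:**
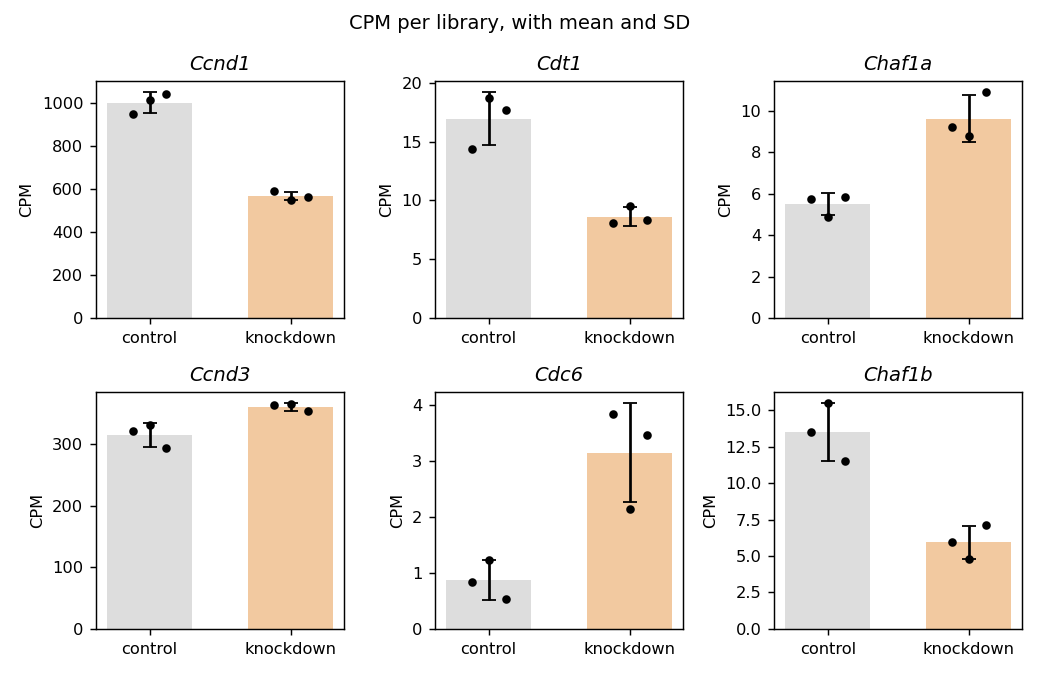
CPM of 6 genes in control and knockdown libraries; bars are means of 3 libraries, error bars the SD, dots single libraries. Each column holds genes with related tasks that were called in opposite directions: Ccnd1 lower and Ccnd3 higher, Cdt1 lower and Cdc6 higher, Chaf1a higher and Chaf1b lower. Ccnd2, not shown, was lower as Ccnd1 was. The call of Ccnd3 ended with the length offset, and Cdc6 passed the expression filter through its knockdown libraries only.

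The E2F and retinoblastoma genes also split. E2f3, an activating E2F, was at 14.6, 13.5 and 12.6 CPM in controls and at 20.3, 20.4 and 19.7 CPM after knockdown. Each knockdown library was above each control, and the log2 fold change was 0.57 (SE 0.0940, adjusted p 1.62e-05). E2f1 (0.13, SE 0.105, adjusted p 0.287) and E2f2 (-0.32, SE 0.196, adjusted p 0.167), the other activating members, overlapped between groups and were not called. Rb1, whose product holds E2F factors inactive, was at 41.0, 43.0 and 42.9 CPM in controls and at 56.2, 61.5 and 57.2 CPM after knockdown. Each knockdown library was above each control, with a log2 fold change of 0.46 (SE 0.0624, adjusted p 1.02e-06), which the length offset lowered to 0.22 without ending the call. Rbl1, which encodes the related pocket protein p107 and is itself an E2F target, was at 13.7, 13.5 and 13.7 CPM in controls and at 10.1, 10.6 and 10.5 CPM after knockdown. These groups were tight and separate, with a log2 fold change of -0.39 (SE 0.106, adjusted p 0.00305).

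Since E2F factors act through promoter sites, the 250 bases before each gene's start were searched in the RefSeq promoter table of rat assembly GRCr8. It held 35 of the 46 members by symbol; the others were Ccnd1, Ccnd2, Ccne2, Cdk6, E2f1, E2f2, Orc1, Cdc6, Mcm4, Gins4 and Rrm2. The E2F words searched, on both strands and with overlaps counted, were TTTCCCGC, TTTGGCGC, TTTCGCGC and TTTGCCGC. A gene with several promoter entries was counted if any entry held a word, and among the members only Uhrf1 had several (3). Of the 35 members, 12 held at least 1 word (34.3%), against 1.91% of all 27457 genes in the table. The split by call leaves out Cdc6, Gins4 and Rrm2, which were called higher, and Ccnd1, Ccnd2 and Ccne2, which were called lower. By call, the words were in 7 of 9 members called lower (Cdc25a, Rbl1, Mcm2, Mcm6, Mcm7, Tyms and Uhrf1), in 3 of 11 called higher (E2f3, Mcm5 and Pola1) and in 2 of 15 not called (Gins1 and Gins3). Among tested replication genes outside the module, the words were in 2 of 20 called lower, 5 of 16 called higher and 4 of 19 not called. Over all tested genes the share was 3.63% of those called lower, 3.22% of those called higher and 3.16% of those not called. CCAAT and TTTGAA were searched in the same way. CCAAT was in 22 of the 35 members (62.9%), against 36.1% of all genes in the table. It was in 4 of 9 members called lower, 8 of 11 called higher and 10 of 15 not called. Over all tested genes these shares were 35.6%, 38.2% and 37.0%. TTTGAA was in 3 of the 35 members (8.57%), against 17.2% of all genes in the table. A match is a description of these letters and not of binding.

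The 4 promoters below show the E2F words in genes that moved in opposite directions: the 2 highest and the 2 lowest called members that hold one. They are the 250 bases up to the annotated start, 5′ to 3′ on the gene's strand, with the E2F words in capitals. Mcm5 lies at chr19:13488563-13488812 (plus strand), E2f3 at chr17:34810166-34810415 (plus strand), Tyms at chr9:120776084-120776333 (minus strand) and Cdc25a at chr8:118742798-118743047 (plus strand), all in GRCr8; the build used for the counts is not given in the sources used here.
Mcm5: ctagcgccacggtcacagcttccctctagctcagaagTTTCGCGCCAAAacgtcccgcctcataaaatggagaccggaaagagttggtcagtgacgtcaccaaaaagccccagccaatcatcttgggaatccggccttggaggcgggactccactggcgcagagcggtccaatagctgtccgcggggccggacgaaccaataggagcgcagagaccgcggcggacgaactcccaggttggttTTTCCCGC
E2f3: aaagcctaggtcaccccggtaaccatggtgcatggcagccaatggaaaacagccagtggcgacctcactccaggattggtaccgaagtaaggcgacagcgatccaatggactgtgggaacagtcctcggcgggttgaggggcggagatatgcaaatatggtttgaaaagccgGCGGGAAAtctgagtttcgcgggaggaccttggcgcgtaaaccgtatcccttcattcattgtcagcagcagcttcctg
Tyms: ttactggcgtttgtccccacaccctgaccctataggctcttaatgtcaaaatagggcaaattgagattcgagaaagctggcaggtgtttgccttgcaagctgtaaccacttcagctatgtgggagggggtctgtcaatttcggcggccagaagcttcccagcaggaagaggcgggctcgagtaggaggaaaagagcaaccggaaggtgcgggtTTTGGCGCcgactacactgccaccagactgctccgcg
Cdc25a: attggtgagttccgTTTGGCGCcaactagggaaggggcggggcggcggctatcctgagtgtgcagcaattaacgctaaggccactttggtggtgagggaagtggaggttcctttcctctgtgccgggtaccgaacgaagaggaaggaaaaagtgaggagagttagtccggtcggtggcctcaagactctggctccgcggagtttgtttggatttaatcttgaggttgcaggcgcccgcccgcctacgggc

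In these 4 promoters the E2F words do not sit at a common place. Mcm5 holds 3, a pair that overlaps at 213 and 209 bases before the start and 1 that begins 8 bases before it. The word begins 78 bases before the start in E2f3, 37 in Tyms and 236 in Cdc25a.

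Origin licensing held both ends of the range. Cdc6, whose product brings the MCM helicase to the origin recognition complex, was at 0.844, 1.24 and 0.540 CPM in controls and at 3.84, 2.15 and 3.47 CPM after knockdown. Those are 11, 16 and 7 counts against 53, 29 and 46 counts, so the groups do not overlap, but the level is low and the control values vary widely among themselves. The fitted fold was 3.58 (log2 fold change 1.84, SE 0.318, adjusted p 2.70e-05). Cdc6 passed the expression filter through its knockdown libraries only, since 2 of its 3 controls reached the filter's 0.755 CPM; the other 45 members passed in both groups. Cdt1, which works with CDC6 in loading the helicase, was at 14.4, 18.7 and 17.7 CPM in controls and at 8.05, 9.54 and 8.31 CPM after knockdown. It fell to a fitted fold of 0.511 with no overlap (log2 fold change -0.97, SE 0.120, adjusted p 2.88e-07). The origin recognition genes Orc1 (-0.02, SE 0.269) and Orc6 (0.14, SE 0.151) overlapped between groups, Orc1 at 18 to 31 counts a library.

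The 6 genes of the MCM2-7 ring encode proteins that work in equal numbers, but their transcripts did not change alike. Mcm5 was at 6.21, 6.19 and 6.02 CPM in controls and at 10.9, 8.43 and 11.6 CPM after knockdown, a rise of 0.75 on the log2 scale (SE 0.143, adjusted p 8.68e-05). Mcm2 was at 66.0, 68.4 and 55.8 CPM in controls and at 46.4, 43.4 and 49.5 CPM after knockdown, a log2 fold change of -0.45 (SE 0.0728, adjusted p 1.25e-05). Mcm5 was thus above, and Mcm2 below, its controls in each knockdown library. Mcm6 was at 26.6, 25.9 and 28.1 CPM in controls and at 22.5, 15.2 and 21.2 CPM after knockdown (-0.45, SE 0.106, adjusted p 0.000834). Knockdown library 2 is the low value here, and without it the log2 fold change was -0.29, still called. Mcm7 had a log2 fold change of -0.23 (SE 0.0888, adjusted p 0.0277) that lost its call under 8 of 16 alternatives, among them library totals (-0.18), the length offset (-0.12), and the fits without knockdown library 2 (-0.12), control library 1 (-0.21) or control library 2 (-0.23). Mcm3 (0.09, adjusted p 0.528) and Mcm4 (-0.01, adjusted p 0.925) were not called. Summed over the ring, transcripts were at 174 to 188 CPM in controls and 140 to 173 CPM after knockdown, with knockdown library 2 at the bottom. Across the whole module that library was the lowest of its group for 23 of the 46 members, against 10 and 13 for knockdown libraries 1 and 3.

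The helicase activation genes were the role with the highest median, 0.67, with 3 of 6 called higher, none called lower and all 6 log2 fold changes above 0. Across all tested genes 30.8% were called higher and 30.9% lower. All but Gins3 had a mean of at most 4.04 CPM in either group, and Gins3, at 14.2 CPM in controls, had the smallest change. Members under 10 CPM had a median of 0.48 as a class, and the part of expression level was not tested. Cdc45, a subunit of the active helicase, was at 1.15, 0.774 and 1.62 CPM in controls and at 3.04, 2.22 and 1.96 CPM after knockdown. The highest control and the lowest knockdown library are close, and the log2 fold change was 1.02 (SE 0.301, adjusted p 0.00513). Mcm10, which is needed for the helicase to start, was at 0.997, 1.24 and 1.47 CPM in controls and at 2.32, 1.85 and 3.25 CPM after knockdown (1.00, SE 0.290, adjusted p 0.00494). Both rest on 10 to 21 counts a control library. Gins4, a GINS subunit, was at 1.92, 2.24 and 2.24 CPM in controls and at 4.06, 3.92 and 4.15 CPM after knockdown, on 25 to 29 counts a control library. That is the widest gap of the 3 against the spread within groups (0.92, SE 0.206, adjusted p 0.000503). The other GINS genes overlapped between groups, with log2 fold changes of 0.42 for Gins1 (SE 0.308), 0.21 for Gins2 (SE 0.250) and 0.06 for Gins3 (SE 0.114). Transcripts of the 6 genes summed to 21.1 to 23.5 CPM in controls and to more in each knockdown library, up to 29.0 CPM.

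Of the module's 8 genes of the clamp, clamp loader and polymerases, 2 were called (25.0%), against 61.7% of all tested genes. Fork, polymerase and clamp loader genes outside the module, listed further below, did not share this, with 15 of 23 called (65.2%). The 2 called members, Pole and Pola1, encode catalytic subunits of replicative polymerases, as does Pold1, which was not called. Pole, the catalytic subunit of the leading strand polymerase epsilon, was at 4.91, 4.18 and 3.93 CPM in controls and at 8.34, 6.88 and 8.99 CPM after knockdown. Each knockdown library was above each control (0.89, SE 0.159, adjusted p 4.06e-05). Pola1, the catalytic subunit of the primase-associated polymerase alpha, was at 3.37, 4.10 and 5.01 CPM in controls and at 6.52, 6.21 and 5.51 CPM after knockdown (0.55, SE 0.174, adjusted p 0.00893). Pola1 has the longest genomic span of the module, and its call ended with the length offset (0.18, adjusted p 0.383) and without control library 1 (0.41, adjusted p 0.0615). Pcna, the sliding clamp, had a mean of 120 ± 2.21 CPM over control and of 112 ± 9.68 CPM over knockdown libraries (SD, n = 3; -0.11, adjusted p 0.121). Without knockdown library 1 it was called lower (-0.15, adjusted p 0.0430). The clamp loader genes Rfc3 (0.17), Rfc4 (0.22) and Rfc5 (-0.16), the polymerase delta gene Pold1 (0.15) and the primase gene Prim1 (0.20) had adjusted p values from 0.0656 to 0.431. Of these, Rfc4 was called higher with library totals or the length offset, and Prim1 with either of these and without control library 3 or knockdown library 3.

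Nucleotide supply genes moved apart. Tyms, which makes thymidylate for DNA, was at 57.4, 56.0 and 63.2 CPM in controls and at 34.7, 32.9 and 34.4 CPM after knockdown. The gap is wide against the spread within either group, and the fitted fold was 0.578 (log2 fold change -0.79, SE 0.0666, adjusted p 6.34e-10). Rrm2, the regulatory subunit of ribonucleotide reductase that is made in S phase, was at 13.4, 11.4 and 15.7 CPM in controls and at 20.3, 19.6 and 21.3 CPM after knockdown (0.59, SE 0.106, adjusted p 4.20e-05). Its partner subunit Rrm1, not called, was at 78.2 ± 1.95 and 79.7 ± 7.55 CPM (SD, n = 3; 0.03, SE 0.0627). Tk1, the thymidine salvage kinase of S phase, had a log2 fold change of -0.25 (SE 0.124, adjusted p 0.0907), and was called lower only without control library 1 (-0.35, adjusted p 0.0253).

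All 4 genes of strand joining and chromatin were called, 3 higher and 1 lower, where 61.7% of all tested genes were called. Chaf1a, the large subunit of the histone chaperone that deposits histones behind the fork, was at 5.75, 4.88 and 5.86 CPM in controls and at 9.21, 8.80 and 10.9 CPM after knockdown. The groups do not overlap, and the fold was 1.75 (log2 fold change 0.81, SE 0.143, adjusted p 3.79e-05). Fen1, the flap nuclease that trims Okazaki fragments, was at 16.3, 15.3 and 17.5 CPM in controls and at 20.8, 18.3 and 22.2 CPM after knockdown (0.32, SE 0.0963, adjusted p 0.00603). Lig1, the ligase that seals them, had a smaller rise (0.21, SE 0.0714, adjusted p 0.0137) that lost its call with the length offset (0.15, adjusted p 0.0631) and without control library 3 (adjusted p 0.0542) or knockdown library 1 (adjusted p 0.0539). Uhrf1, which brings the maintenance DNA methyltransferase to newly copied DNA, was at 23.5, 22.8 and 23.1 CPM in controls and at 17.4, 20.2 and 18.3 CPM after knockdown. It was lower in each knockdown library (-0.31, SE 0.0865, adjusted p 0.00331).

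The direction of change varied with expression level. Of 16 members with a mean under 10 CPM over the 6 libraries, 8 were called higher, 1 (Ccne2) lower and 7 not, and their median log2 fold change was 0.48. The 8 include Cdc6, which passed the expression filter through its knockdown libraries only. Of 30 members at or over 10 CPM, 6 were called higher and 11 lower, with a median of -0.10. Among all tested genes, 23.8% of those under 10 CPM were called higher and 20.1% lower, and 34.4% and 36.3% of those at or over it, with medians of 0.05 and -0.01. CPM is not corrected for transcript length, so this split orders genes by counts and not by molecules.

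**Figure D3:**
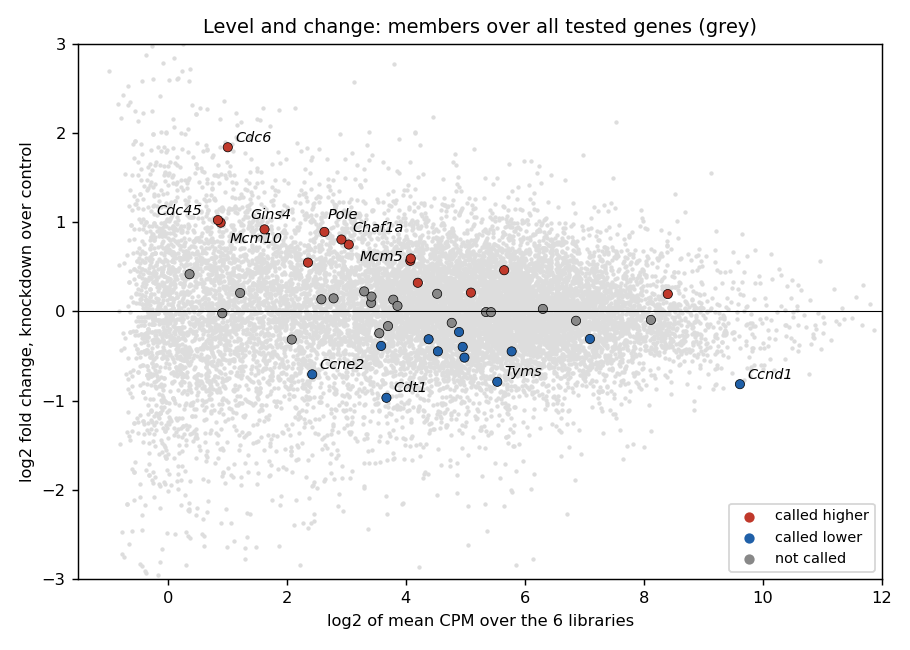
Log2 fold change against log2 mean CPM for the 46 members (coloured by call) over all tested genes (grey; 42 lie outside the axes). Members called higher with the largest changes, such as Cdc6, Cdc45 and Mcm10, lie at low CPM, and Ccnd1 at the right edge of the members is lower. Cdc6 passed the expression filter through its knockdown libraries only.

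Genomic span was the other property that moved with the change. Members were split at 12.7 and 38.2 kb, the edges that divide all tested genes with a span into 3 equal classes. Of the 8 longest, 6 were called higher and 1, Rbl1, lower, with a median log2 fold change of 0.34. Of the 16 shortest, 2 were called higher and 5 lower, with a median of -0.12, and of the 22 between them, 6 were called each way, with a median of 0.12. All tested genes followed the same order, with medians of -0.14, -0.02 and 0.19 from short to long. Of all tested genes with a span, 47.6% of the long class were called higher and 20.5% lower. In the middle class these shares were 29.7% and 33.4%, and in the short class 18.8% and 40.6%. An offset that removes the trend with span from each library left 22 of the 26 calls in place and changed the sign of none of the 26. The 4 it ended were Ccnd3, Mcm7, Pola1 and Lig1.

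**Figure D4:**
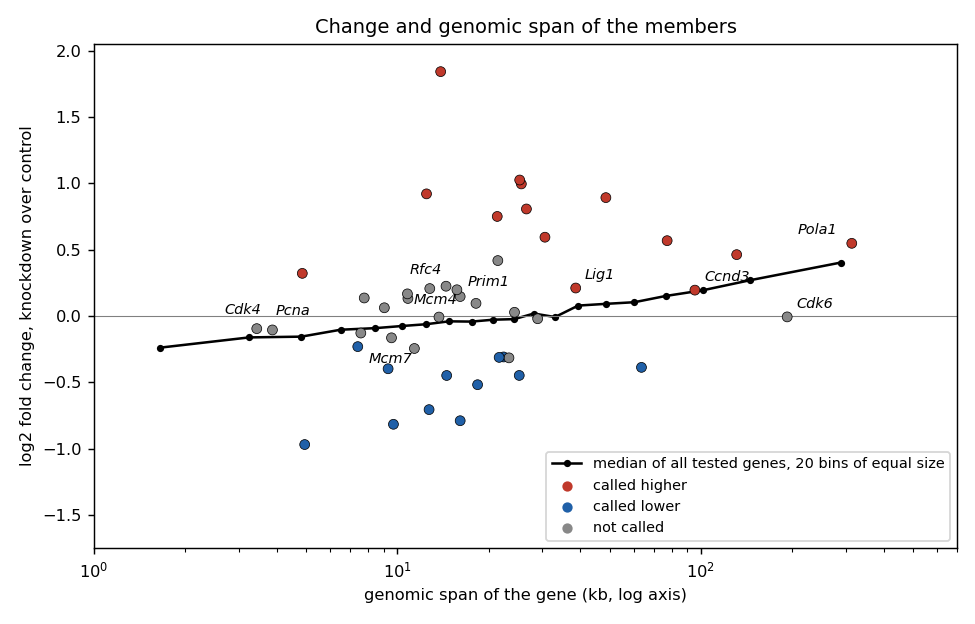
Log2 fold change of the 46 members against genomic span on a log axis, with the median of all tested genes in 20 bins of span as a line. The line climbs from short to long genes; named members are those whose call or sign differs with an offset for span, and Cdc6, Cdc45 and Cdt1 lie far from the line.

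To see whether the rest of the pathway looked alike, 69 replication and G1/S genes outside the module were read from the same fit. Of 67 tested, 42 were called (62.7%), 18 higher and 24 lower, with a median log2 fold change of -0.02. Among called genes at 10 CPM or more, the highest were Rfc1, the large clamp loader subunit (1.01, SE 0.0744), Orc3 of the origin recognition complex (1.01, SE 0.103) and Tfdp2, a dimer partner of E2F factors (1.00, SE 0.104). The lowest were E2f5, a repressive E2F (-1.07, SE 0.101), Usp1, which removes ubiquitin from the clamp (-1.03, SE 0.0622), and Dnmt1, the maintenance methyltransferase that works with UHRF1 (-0.87, SE 0.0760). Their subgroups differed: 9 of 11 nucleotide supply and histone coupling genes were called lower and 1 higher, and 5 of 23 fork, polymerase and clamp loader genes lower and 10 higher. Of 8 E2F factors and partners, 2 were lower and 3 higher, of 15 licensing and firing genes 5 and 3, and of 10 S phase cyclin, ubiquitin ligase and checkpoint genes 3 and 1. Across all tested genes these shares were 30.9% lower and 30.8% higher. When libraries were scaled by their totals alone, 20 of these genes were called higher and 19 lower.

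Partner subunits of some members were chosen after their values were seen, and moved with their member in some cases and against it in others. Chaf1b, the middle subunit of the complex of Chaf1a, was at 13.5, 15.5 and 11.5 CPM in controls and at 5.94, 4.81 and 7.10 CPM after knockdown (-1.18, SE 0.147, adjusted p 2.87e-07). Chaf1a was thus above and Chaf1b below its controls in every knockdown library. Of the other polymerase epsilon subunits, Pole4 was higher as Pole was (0.85, SE 0.0742), Pole3 was lower (-0.30, SE 0.0658), a call that the length offset ended, and Pole2 was not called (0.47, SE 0.320). Beside Pola1, the primase subunit gene Prim2 was higher (0.59, SE 0.168), a call that the length offset also ended, and Pola2 was not called (-0.21, adjusted p 0.0678). Rrm2b, the stress-induced alternative to Rrm2, was lower (-0.38, SE 0.0858). Orc4 (-0.55) and Orc5 (0.62) of the origin recognition complex were called in opposite directions, and Orc2 (0.11) was not called. The helicase-firing kinase genes Cdc7 (-0.70) and Dbf4 (-0.81) were both lower.

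Of 30 genes of G2 and mitosis, the phases that follow replication, 23 were called higher (76.7%) and none lower, with a median log2 fold change of 0.57. Across all tested genes 30.8% were called higher and 30.9% lower. The number called ran from 18 to 26 over the alternatives, and with the length offset 25 were higher and 1 lower. Top2a (1.32), Tpx2 (1.30) and Ncapd2 (0.55), which encode a DNA topoisomerase, a spindle factor and a condensin subunit, were the highest called at 10 CPM or more. Prc1 (0.33), Cdk1 (0.42) and the proliferation marker Mki67 (0.42) were the lowest called at that level. The summed level of the 30 genes was 208 to 214 CPM in controls and 304 to 339 CPM after knockdown, while that of the 46 members was 2585 to 2683 CPM and 2155 to 2210 CPM. Without Ccnd1, the members summed to 1634 to 1672 CPM in controls and 1602 to 1621 CPM after knockdown. The difference between the lists was not tested.

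**Figure D5:**
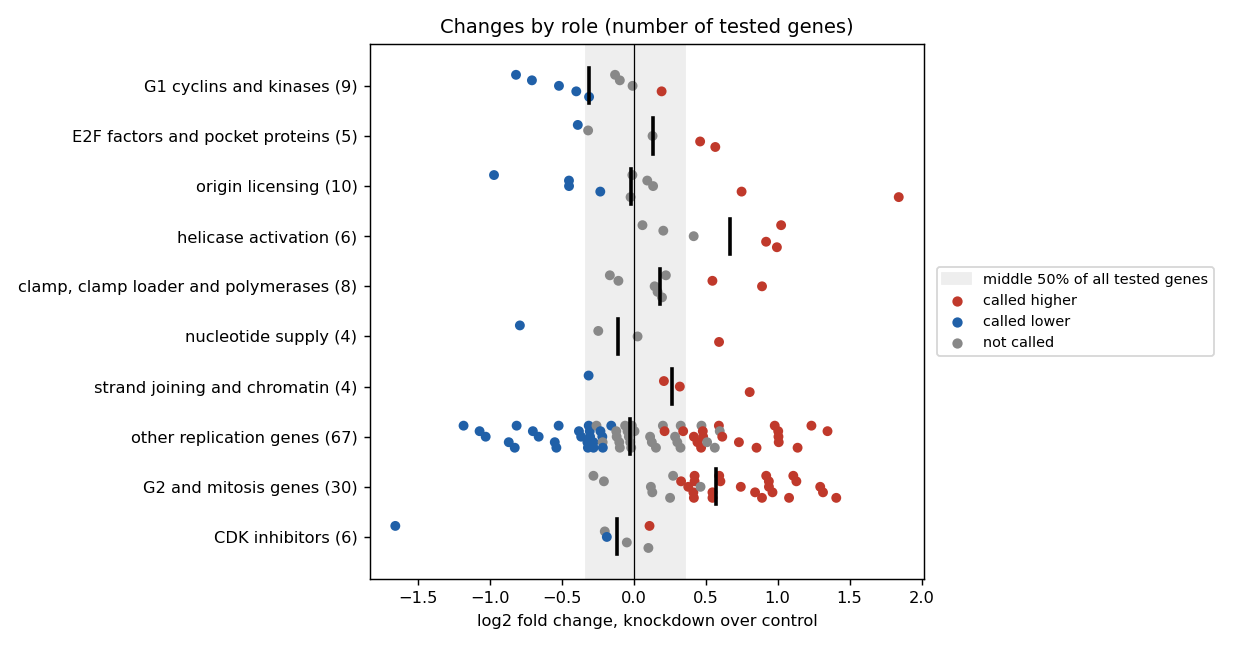
Log2 fold change of each tested gene by role within the module and in 3 other lists, coloured by call, with the median of each as a black bar and the middle 50% of all tested genes shaded. The G1 cyclins and kinases lie mostly left of 0, the helicase activation genes right of it, and the G2 and mitosis genes hold 23 called higher and none lower.

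Inhibitors of the G1 kinases were read last. Cdkn2b, which encodes p15, an inhibitor of CDK4 and CDK6, was at 305, 301 and 310 CPM in controls and at 95.2, 97.0 and 98.6 CPM after knockdown (-1.65, SE 0.0468, adjusted p 1.25e-17). Of the 6 tested, 3 were called (50.0%), against 61.7% of all tested genes. Besides Cdkn2b, Cdkn2a was lower (-0.19, SE 0.0597) and Cdkn1a, which encodes p21, higher (0.11, SE 0.0405, adjusted p 0.0216). Cdkn2a lost its call with library totals and with the length offset.

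Some members share sequence with a neighbour in the GRCr8 gene table. Among protein-coding neighbours on opposite strands, Rb1 overlaps Lpar6, Rrm2 overlaps Cys1, Gins2 overlaps Gse1, Uhrf1 overlaps Arrdc5, Fen1 overlaps Tmem258, Lig1 overlaps Zswim9, Cdk2 overlaps Pmel and Cdk4 overlaps Tspan31, while Ccne2 overlaps Ints8 on its own strand. These overlaps with protein-coding genes run from 11 bases (Cdk4) to 2692 bases (Gins2). Members also overlap non-coding genes and pseudogenes, of which the count table holds Mir25, Mir93 and Mir106b within Mcm7, LOC108350545 at Rbl1, LOC120099463 at Pola1 and LOC120096104 at Pole. The longest overlap of any kind is 18130 bases, between Cdk6 and a long non-coding RNA on the opposite strand. The strand setting of the counting is not given in the sources used here, so the values of these genes may hold reads of the neighbour.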

How the data were processed

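Unscaled counts for each gene symbol and library were deposited by the authors, as whole numbers. FastQC 0.11.7, fastp 0.14.1 and STAR 2.5 are named per the submitters' processing notes; the counting tool, genome build, annotation, strand setting and treatment of reads with several matches are not given in the sources used here. Stranded libraries were made from 500 ng of poly-A selected RNA, per the labels' protocols. The labels do not say that replicates were separate cultures, so p-values measure the spread between these libraries, which may be technical.

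Counts were fitted on the whole table in R 4.3.3 with edgeR 4.0.16 (expression filter with minimum count 10 and minimum total 15, TMM scaling, two-sided quasi-likelihood test, prior count 0.125) on 6 libraries without a block, and p-values were adjusted by Benjamini-Hochberg over 14216 genes. A gene with an adjusted p below 0.05 is called. Each log2 fold change is knockdown over control, and a fold or percent of control called fitted is derived from them. The filter kept 99.8% of counts. Alternatives were DESeq2 size factors, library totals, DESeq2 1.42.0, limma-voom (limma 3.58.1), other filters, an adjusted p under 0.01, a replicate block, each library left out, and a lowess offset (span 0.3) on genomic span from the RefSeq gene table of GRCr8, which covered 92.1% of tested genes. The fits were checked on simulated counts. In the check of the calls few genes were changed, in equal numbers up and down, whereas most tested genes were called here.

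The members and lists were chosen with earlier results of these data known. In each role, values of every library are given for the 3 called members with the largest absolute log2 fold change; in other lists, the 3 highest and 3 lowest called genes at 10 CPM or more are named. Values of every library for other members were added after they were seen.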

Additional observations from a re-analysis of the deposited data

How the results depend on the processing

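All alternatives were planned. The count of called members was 26 and ran from 24 (adjusted p under 0.01, and the replicate block with the length offset) to 27 (25 to 27 over the fits that each omit 1 library). Of these, 11 to 13 were lower and 12 to 16 higher. The share of all tested genes called moved more, from 34.5% (no filter beyond 1 count) to 63.2% (a mean of at least 1 CPM). With no filter beyond 1 count 26 members were called, so their distance from the background depends on the filter. Of 736 combinations of member and alternative, 685 kept direction and call, 18 lost the call, 13 gained it and 20 changed sign, and 31 of 46 members kept both throughout. No called member changed sign. Sign changes were in genes not called: with library totals Cdk6 was at 0.046, Orc1 at 0.032 and Mcm4 at 0.045; with limma-voom Orc1 was at 0.013; with the length offset Cdk4 was at 0.075, Mcm4 at 0.050 and Pcna at 0.055, and with the replicate block added 0.074, 0.048 and 0.054. Leaving out a library gave ranges of -0.050 to 0.026 for Cdk6, -0.21 to 0.18 for Orc1, -0.070 to 0.054 for Mcm4, -0.039 to 0.19 for Gins3, -0.029 to 0.20 for Mcm3 and -0.049 to 0.080 for Rrm1. The cause was not tested. Library totals moved the median of all genes from 0.00 to 0.06, and 55.8% of called genes were then higher, against 50.0%. Replicate numbers did not pair the libraries (correlations of deviations -0.0053, 0.030 and 0.027); with the number as a replicate block, 27 members were called, Cdk4 being the one added (-0.097, adjusted p 0.0471), and 42 genes outside the module, 23 of G2 and mitosis and 3 CDK inhibitors. Calls outside the module ran from 33 to 42, those of G2 and mitosis from 18 to 26 and those of CDK inhibitors from 2 to 4. Depth limits Cdc6, Cdc45, Mcm10, Gins1, Gins2, Gins4 and Orc1, which had 7 to 33 counts in control libraries. The limit of detection, 3 counts, is 0.217 to 0.232 CPM, for counting error only.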
